A study of Danio rerio with 11 samples.

Results

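Melanoma cells (MA) were compared, over all genes, with melanocytes from the skin of fish that already carried the BRAF V600E oncogene and 1 mutant copy of p53 (MC_Het). The comparison took 8 of the 11 RNA-seq libraries of a zebrafish study, 5 MA libraries (MA1, MA2, MA3A, MA3B and MA3C) against 3 MC_Het libraries, chosen by their labels, with each gene identifier used once. The remaining 3 libraries, of melanocytes from fish without the oncogene (MC_WT), enter only where the melanocyte genotypes are set side by side. MA cells were sorted on green fluorescence from excised nodular tumors of BRAFV600E/p53lf/lf/crestin:EGFP fish, in which both p53 copies carry the loss-of-function allele lf and EGFP is under the promoter of crestin, a neural crest gene. MC_Het cells were sorted on red fluorescence from the skin of BRAFV600E/+/p53+/lf/mitfa+/-/mitfa:mCherry fish. MC_WT cells were sorted likewise from wild-type AB* fish that carried mitfa:mCherry, without the mutant p53 and mitfa alleles. The oncogene is human BRAF V600E under the mitfa promoter, so it acts where mitfa is active. The ages of the fish are not given in the sources used here. MA3A, MA3B and MA3C are 3 tumors of 1 fish, so the tumors come from 3 fish, and each MC_Het library is 1 fish. The tissue, the reporter and gate, the dose of the p53 allele and the mitfa genotype differ between the groups together with the disease and cannot be told apart from it. The oncogene is written as BRAFV600E/+ for MC_Het and as BRAFV600E for MA, so its dose may differ as well. The cassette that carries mCherry also holds a small working copy of mitfa, and reads from it and from the endogenous gene cannot be told apart. Levels of crestin, mCherry and EGFP are not analysed here.

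Melanocytes arise from the neural crest, a migratory cell population of the embryo, under transcription factors such as sox10, tfap2a and mitfa, and mitfa then drives the genes that make melanin. BRAF V600E is a kinase that stays active without a growth signal and feeds the ERK pathway, whose output includes both growth genes and the feedback inhibitors that damp it. The p53 protein is a transcription factor that turns on cell cycle inhibitors and death genes after DNA damage, and its loss lets zebrafish melanocytes with the oncogene form melanomas.

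Library sizes recovered from the CPM values were 18293604 to 22612463 reads in MA and 14718024 to 18031984 in MC_Het, of which 89.5% to 91.9% fell on the genes listed. They are the totals that the CPM were scaled by, not counts of reads sequenced. Levels are reads scaled to a common library size (CPM) as deposited, divided by 1 factor per library, the median over genes of its ratio to the geometric mean of the 8 libraries. Below, CPM means this rescaled value unless said otherwise, and lists of values run in the order MA1, MA2, MA3A, MA3B, MA3C and MC_Het1, MC_Het2, MC_Het3. The factors were 1.101 to 1.260 in MA and 0.73 to 0.78 in MC_Het. The 50 most abundant genes took 20.6% to 28.2% of the MA libraries and 30.6% to 36.6% of the MC_Het libraries. A gene was tested if at least 3 of the 8 libraries had 1 CPM as deposited or more, on the scale log2(rescaled CPM + 1), with limma and the fish as a random block. It was called higher or lower in MA when its p-value, adjusted over all genes tested by the Benjamini-Hochberg method, was under 0.05 and its log2 fold change exceeded 1 in size. The added 1 makes fold changes of low genes smaller than their ratios, and errors of fold changes are standard errors. A value alone in parentheses after a gene is its log2 fold change of MA over MC_Het. The p-values measure the spread between the libraries of these few fish. The tumors of fish MA3 enter as separate libraries with a shared correlation, so part of that spread lies between tumors of 1 fish.

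Of 14015 genes tested, 2168 (15.5%) were higher and 3142 (22.4%) lower in MA, together 37.9%. The lower calls reached further: 372 genes lay below -5 on the log2 scale, whereas 17 lay above 5. The groups did not overlap for 41.8% of all genes tested, with MA above for 18.5% and below for 23.3%. The median log2 fold change of all genes was 0.06. With the CPM as deposited that median was 0.59, and 4329 genes were higher and 2488 lower, so that lower genes made up 36.5% of calls in place of 59.2%. Scaling by the 75th percentile put the median at 0.26, with 2875 higher and 2851 lower, of which 49.8% were lower. Which direction held more genes therefore depended on the scaling. Without fish MA3 there were 1379 higher and 2595 lower genes, and without MC_Het3 1632 higher and 2209 lower. Many of the lower genes reached the minimum level in the MC_Het libraries only, so that 674 to 676 of the 3142 were not tested at all when 1 MC_Het library was left out, and counts of lower genes given without such a library fall for that reason too.

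**Figure D1:**
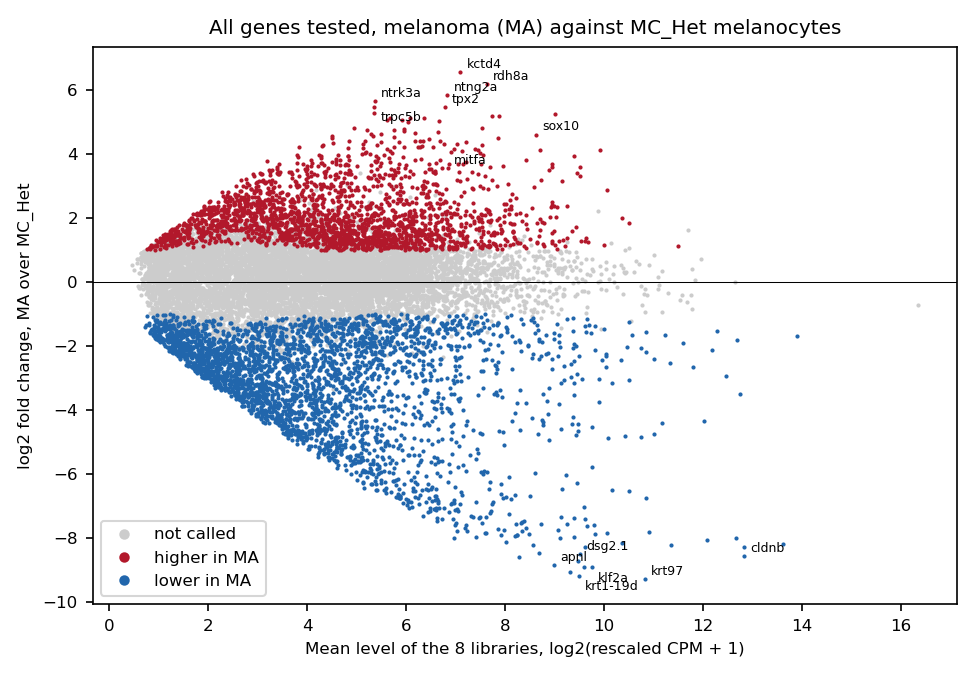
Log2 fold change of MA over MC_Het (y) against the mean level of the 8 libraries as log2(rescaled CPM + 1) (x) for the 14015 genes tested. Red points are the 2168 genes called higher in MA, blue points the 3142 called lower and grey points the rest, and the genes with the largest changes are named with mitfa and sox10.

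Among called genes with a mean of at least 10 CPM in the higher group and no overlap, the largest gain was that of kctd4, a gene of the potassium channel tetramerisation domain family, with 311, 96.1, 281, 255 and 142 CPM in MA against 0.446, 1.27 and 1.59 CPM in MC_Het (log2 fold change 6.56 ± 0.47, limma adjusted p = 1.33e-06). The retinol dehydrogenase rdh8a had 266, 474, 163, 341 and 321 CPM in MA and 6.4, 3 and 1.59 CPM in MC_Het (log2 fold change 6.19 ± 0.46, limma adjusted p = 1.56e-06). All 5 MA libraries lay far above the 3 MC_Het libraries for both genes. The netrin-G gene ntng2a, which encodes a membrane-anchored guidance protein, had 323, 23.7, 287, 80.2 and 191 CPM in MA and 1.56, 0.908 and 0.758 CPM in MC_Het (log2 fold change 5.86 ± 0.79, limma adjusted p = 0.000124), with MA2 the lowest tumor. The neurotrophin receptor ntrk3a (5.67), the cation channel trpc5b (5.48) and the spindle protein tpx2 (5.48) completed the 6 largest gains on the log2 scale. The 6 largest falls were larger than any gain. The keratin krt97 had 6.6, 4.33, 3.93, 5.4 and 16.1 CPM in MA against 2579, 7109 and 4818 CPM in MC_Het (log2 fold change -9.29 ± 0.53, limma adjusted p = 2.77e-07), and the keratin krt1-19d had 2.82, 2.07, 1.66, 1.68 and 1.73 CPM in MA against 1030.3, 2397 and 2328 CPM in MC_Het (log2 fold change -9.19 ± 0.38, limma adjusted p = 4.09e-08). The Krüppel-like transcription factor klf2a fell to 3.91, 2.21, 2.86, 3.23 and 4.14 CPM in MA, against 999, 2296 and 3594 CPM in MC_Het (log2 fold change -8.93 ± 0.43, limma adjusted p = 1.3e-07). The remaining genes with the largest falls were the actinoporin-like gene apnl (-8.86), the tight junction claudin cldnb (-8.58) and the desmoglein dsg2.1 (-8.52), a desmosomal cadherin. Keratins, claudins and desmogleins are genes of epithelia.

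The MC_Het libraries held transcripts of genes used as markers of many cell types besides melanocytes. Which cells these transcripts came from was not tested. Of 26 keratinocyte markers tested, 25 were lower and 0 higher in MA, with a median log2 fold change of -6.91, and 19 of them lay below -5. Summed, the keratinocyte markers made up 0.167% to 0.420% of the MA libraries and 7.66%, 8.36% and 10.3% of MC_Het1, MC_Het2 and MC_Het3. The keratin krt5 had 141, 75.1, 129.7, 62.5 and 82.3 CPM in MA and 32884, 12588 and 54362 CPM in MC_Het (log2 fold change -8.19 ± 0.51, limma adjusted p = 4.92e-07), and cldnb had 49.8, 28.5, 68.2, 38 and 104 CPM in MA and 14131, 25710.0 and 18624 CPM in MC_Het. The simple epithelial keratin krt4 was at 44.4, 36.1, 64, 26.8 and 329 CPM in MA, highest in MA3C, and at 11558, 18406 and 27935 CPM in MC_Het. None of these ranges overlapped, and icn2 (-8.28), a skin gene of the S100 family, and the adhesion gene epcam (-7.83) moved as far. Per length, as CPM per kilobase (RPKM), cldnb averaged 52.0 ± 26.8 RPKM in MA and 17605 ± 5273 RPKM in MC_Het (SD, n = 5 tumors and 3 fish). In MC_Het only a mitochondrial ribosomal RNA was higher. In these bulk libraries, fewer cells of a type and less RNA per cell cannot be told apart. What part the keratinocyte markers have in any other result was not tested.

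Most leukocyte, fibroblast, muscle and endothelial markers were lower in MA as well. Of 17 leukocyte markers, 14 were lower and 0 higher (median -3.49), and together they made up 0.0139% to 0.158% of the MA libraries and 0.527% to 0.723% of the MC_Het libraries. The MHC class II invariant chain cd74a had 595, 52.9, 55.5, 74.3 and 330.1 CPM in MA and 5398, 3838 and 3532 CPM in MC_Het (log2 fold change -4.86 ± 0.84, limma adjusted p = 0.000727), and MA1 and MA3C were the highest tumors. The same tumors were highest for its paralog cd74b (-4.60), the chemokine receptors cxcr4b (-4.76) and ccr9a (-4.69), and MA1 alone stood out for the granulin grn1 (-5.11). Of 18 fibroblast and osteoblast markers 17 were lower and 0 higher (median -4.33), at 0.00788% to 0.0303% of MA and 0.129% to 0.498% of MC_Het libraries. The type I collagen gene col1a2 had 3.82, 2.53, 3.73, 3.18 and 31.7 CPM in MA, highest in MA3C, and 1299.7, 3212 and 325 CPM in MC_Het (log2 fold change -7.57 ± 0.92, limma adjusted p = 5.86e-05), and the proteoglycan dcn (-6.95), col1a1a (-6.49) and col1a1b (-6.32) followed it. Muscle markers counted 10 lower and 2 higher of 12 tested (median -3.32), led by the creatine kinases ckmb (-6.26) and ckma (-4.76), the myosin light chain mylpfa (-5.21) and the calcium pump atp2a1 (-4.24), while the 2 higher genes were actins, acta1a and acta1b. Endothelial markers counted 8 lower and 0 higher of 10 (median -3.23), among them sox7 (-4.49), pecam1 (-3.89), lyve1b (-3.77) and tie1 (-3.46). The angiopoietin receptor tek was not called, with 3.6, 9.12, 13.5, 7.46 and 17.6 CPM in MA and 42.5, 15.2 and 6.07 CPM in MC_Het. When any 1 MC_Het library was left out, 5 of the 10 muscle genes and 3 of the 8 endothelial genes were no longer tested, and 4 or 5 muscle and 5 endothelial genes were lower. All those markers were low in both groups: muscle markers summed to at most 0.0331% and endothelial markers to at most 0.0251% of a library. Of 6 erythrocyte markers tested 1 was called, the anion exchanger slc4a1a, which was lower (-2.41). That call was lost without fish MA3 and in edgeR and DESeq2, and 3 of the markers were lower without MA2. The hemoglobin genes hbba1 (ENSDARG00000089087, 1 of 2 genes of that name, 13.1, 53, 1.7, 0.126 and 3.7 CPM in MA, 27.1, 15.5 and 28.7 CPM in MC_Het) and hbba2 (-0.86) were not called.

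**Figure D2:**
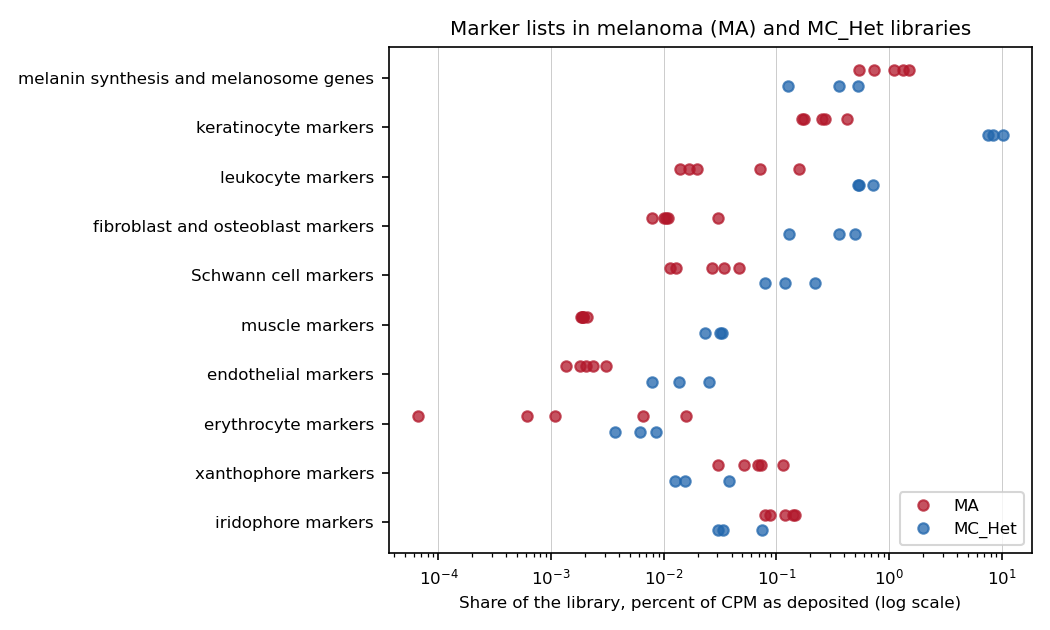
Summed level of melanin genes and of the markers of 9 other cell types, as a percent of the CPM as deposited (x, log scale), with 1 point per library, MA in red above MC_Het in blue. Keratinocyte markers took 0.167% to 0.420% of MA libraries and 7.66% to 10.3% of MC_Het libraries, and the melanin genes 0.544% to 1.52% and 0.127% to 0.532%.

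Markers of the other pigment cells and of the Schwann cell lineage had calls in both directions. Beside them, 15.5% of all genes tested were higher and 22.4% lower. Of 8 xanthophore markers 4 were lower and 2 higher. Their summed share, which includes the melanin gene tyrp1a, was 0.0303% to 0.114% of MA libraries and 0.0126% to 0.0378% of MC_Het libraries, with overlap. The aldehyde oxidase gene aox5 fell, with 0.217, 0.645, 0.952, 0.209 and 1.29 CPM in MA and 67.6, 46.6 and 50.7 CPM in MC_Het (log2 fold change -5.14 ± 0.45, limma adjusted p = 5.3e-06). The transcription factor pax7b (-4.17) and zgc:162150 (-3.27), listed as plin6, fell as well, whereas the sugar transporter slc2a15b (2.18) rose, a call lost without MC_Het2 or MC_Het3 and with no filter on low values. Of 13 iridophore markers 3 were higher, among them the endothelin receptor ednrba (293, 334, 206, 295 and 151 CPM in MA, 131, 13.4 and 17.5 CPM in MC_Het) and the homeobox gene alx4a (2.04), and 2 were lower, the connexin cx30.3 (-4.67) and alx4b (-2.82). Of 10 Schwann cell markers 6 were lower and 2 higher. The myelin genes pmp22b (-4.23), mbpa (-3.05) and mbpb (-2.26) were on the lower side, and the fatty acid binding gene fabp7a, highest in MA3B at 143.7 CPM, on the higher side (log2 fold change 4.19 ± 0.86, limma adjusted p = 0.00231).

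Transcription factors of the neural crest and of pigment cells had more higher than lower calls in MA. Of 18 tested, 9 were higher, 4 were lower and 5 were not called, with a median log2 fold change of 1.47 beside 0.06 for all genes. The shares were 50% higher and 22.2% lower, beside 15.5% and 22.4% of all genes tested. The melanocyte master regulator mitfa had 165, 168, 181, 146 and 193 CPM in MA against 39.1, 13.8 and 4.1 CPM in MC_Het (log2 fold change 3.56 ± 0.55, limma adjusted p = 0.000338). The tumors lay close together, at 170.5 ± 17.8 CPM (SD, n = 5 tumors, 3 of them from 1 fish). MC_Het fell apart, at 18.99 ± 18.05 CPM (SD, n = 3 fish). The crest factor sox10 had 618, 746, 479.7, 705 and 485 CPM in MA and 83.7, 33.6 and 4.4 CPM in MC_Het (log2 fold change 4.61 ± 0.71, limma adjusted p = 0.000325), and MC_Het3 was again far below the other melanocyte libraries. MC_Het3 also had the smallest share of melanin genes and the largest of keratinocyte markers. Without MC_Het3 the count stayed at 9 higher but was 1 lower, and it was 2 lower without MC_Het1 or with the CPM as deposited.

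The AP-2 factor tfap2e had 424, 323, 211, 287 and 198 CPM in MA and 26.6, 8.54 and 3.41 CPM in MC_Het (log2 fold change 4.82 ± 0.53, limma adjusted p = 2.85e-05). Its paralog tfap2a, which specifies crest and pigment cells, had 915, 540.1, 1016, 428 and 603 CPM in MA and 195, 101 and 112 CPM in MC_Het (log2 fold change 2.36 ± 0.41, limma adjusted p = 0.000805), and all 3 Tfap2 genes tested were higher. The homeobox gene dlx2a had 168, 368, 486, 483 and 359.6 CPM in MA and 5.58, 9.63 and 9.18 CPM in MC_Het (log2 fold change 5.19 ± 0.39, limma adjusted p = 1.81e-06), a gap without overlap, and its neighbour in the genome dlx1a followed it (log2 fold change 4.76 ± 0.84, limma adjusted p = 0.000891). The crest specifier pax3a was at 66.7, 111, 39.98, 90.4 and 37.7 CPM in MA and 5.36, 1.54 and 1.29 CPM in MC_Het (log2 fold change 4.37 ± 0.53, limma adjusted p = 5.69e-05), and the SoxD genes sox5 (3.32) and sox6 (2.79) were higher too. On the lower side stood pax7b, a factor of the xanthophore lineage, sox9b (-3.06), twist1a (-1.94) and CABZ01069595.1 (-1.50), which was listed as ets1. The epithelial to mesenchymal transition gene snai2 (0.66) and the Wnt effector lef1 (-0.26) did not pass the test.

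Over whole families of transcription factors, the 5 largest gains were those of dlx2a, tbx2a, tfap2e, dlx1a and sox10. The T-box gene tbx2a, known in mammalian melanoma for its repression of senescence genes, had 141, 249, 45.4, 61.2 and 34.6 CPM in MA and 2.08, 2.27 and 1.21 CPM in MC_Het (log2 fold change 5.13 ± 0.58, limma adjusted p = 3.37e-05). The 5 largest falls were those of klf2a, klf2b, klf5l, sox3 and elf3. The SoxB1 gene sox3 had 0.0868, 0.507, 0.745, 0.293 and 2.21 CPM in MA against 97, 293 and 314 CPM in MC_Het (log2 fold change -7.07 ± 0.57, limma adjusted p = 2.69e-06), klf5l 0.738, 1.01, 4.55, 0.503 and 2.21 CPM against 189, 476 and 364 CPM (log2 fold change -7.11 ± 0.57, limma adjusted p = 2.8e-06), and the epithelial Ets factor elf3 4.73, 2.81, 2.24, 2.3 and 26.2 CPM, highest in MA3C, against 448, 1063 and 444 CPM (log2 fold change -6.76 ± 0.81, limma adjusted p = 4.93e-05). By family, 14 of 19 Klf genes were lower and 0 higher, 13 of 25 Fox genes were lower and 4 higher, and Sox genes divided into 5 higher and 5 lower of 13. The lower shares were 73.7% of Klf, 52% of Fox and 38.5% of Sox genes, beside 22.4% of all genes tested. The higher shares were 16% of Fox genes, near the 15.5% of all genes, and 38.5% of Sox genes. The other Dlx genes went the opposite way from dlx1a and dlx2a, with 4 of 6 lower, although 3 of those 4 were not tested when any MC_Het library was left out and 0 or 1 was then lower. The Fox counts were 7 lower with the CPM as deposited, 8 lower without MC_Het2 or MC_Het3 and 1 higher without MC_Het1 or MC_Het2.

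Of 17 melanin genes tested, 8 were higher, 1 was lower and 8 were not called (median 1.45), and with CPM as deposited 13 were higher. Their summed share of the CPM as deposited was 0.544% to 1.52% of MA libraries and 0.532%, 0.358% and 0.127% of MC_Het1, MC_Het2 and MC_Het3, without overlap. On the rescaled scale the sums overlapped, at 4321 CPM in MA1 and 6119 to 13804 CPM in the other MA libraries, against 6787, 4793 and 1742 CPM in MC_Het1, MC_Het2 and MC_Het3. The tyrosinase-related enzyme tyrp1a had 194, 427, 85.4, 313 and 307 CPM in MA and 55.1, 6.27 and 5.54 CPM in MC_Het (log2 fold change 4.15 ± 0.77, limma adjusted p = 0.00127), and dct, which converts dopachrome, 46.4, 182, 364, 226 and 268 CPM in MA and 26.9, 11.8 and 3.87 CPM in MC_Het (log2 fold change 3.69 ± 0.68, limma adjusted p = 0.00116). Both had MA above MC_Het throughout. Tyrosinase itself, tyr, the rate-limiting enzyme, had 28.9, 162, 63.8, 103 and 79.8 CPM in MA and 35.3, 13.2 and 8.65 CPM in MC_Het, with MA1 below MC_Het1 (log2 fold change 2.14 ± 0.59, limma adjusted p = 0.0131). Its call was lost without fish MA3 and without MC_Het3.

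Other genes of the pathway were higher, not called or lower in MA. The paralog tyrp1b was the most abundant gene of the list per length in MA, at 2371 ± 1291 RPKM in MA and 1464 ± 814 RPKM in MC_Het (SD, n = 5 tumors and 3 fish). Its groups overlapped, at 2108, 7793, 4417, 2342 and 6682 CPM in MA and 4242, 3292 and 1116 CPM in MC_Het (log2 fold change 0.71 ± 0.64, limma adjusted p = 0.411). The melanosome matrix gene pmela was likewise not called (log2 fold change 1.07 ± 0.65, limma adjusted p = 0.217). The exchanger slc24a4a rose (log2 fold change 3.02 ± 0.69, limma adjusted p = 0.00462). The melanosomal chloride channel gene oca2 fell to 2.21, 0, 1.82, 0.796 and 0.884 CPM in MA, against 15.3, 12.5 and 2.88 CPM in MC_Het (log2 fold change -2.29 ± 0.60, limma adjusted p = 0.00976), a call lost without fish MA3. The transporter slc45a2 ranged from 10.2 CPM in MA1 to 267 CPM in MA3C and from 7.66 CPM in MC_Het3 to 86.5 CPM in MC_Het1, and was not called (0.19).

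Both groups carry the oncogene that drives ERK, at a dose that may differ, and output and feedback genes of the pathway had calls in both directions. Of 19 tested, 9 were higher and 5 lower (median 1.26). The shares were 47.4% higher and 26.3% lower, beside 15.5% and 22.4% of all genes tested, so the lower share was near that of all genes. The genes egr1 and egr3 are also on the list of immediate early and dissociation stress genes given below. The feedback inhibitor spry4 had 1791, 571, 982, 939 and 890.1 CPM in MA and 112, 38.8 and 57 CPM in MC_Het (log2 fold change 3.93 ± 0.44, limma adjusted p = 3.14e-05). The nuclear ERK phosphatase dusp4 had 582, 291, 203, 131 and 217 CPM in MA and 27.9, 5.09 and 15.3 CPM in MC_Het (log2 fold change 4.30 ± 0.56, limma adjusted p = 9.63e-05). The Ets factors etv4 (3.65), etv5b (3.44) and etv5a (2.17), which are targets of FGF and ERK signalling, the Spred genes spred2b (2.97), spred2a (2.84) and spred1 (1.31), and spry2 (2.27) were higher as well. Another ERK phosphatase went the opposite way: dusp5 had 37.9, 23.7, 16.4, 51.8 and 89.3 CPM in MA against 892, 1851 and 831 CPM in MC_Het (log2 fold change -4.94 ± 0.60, limma adjusted p = 5.72e-05). With it fell egr3 (41.6, 6.17, 11, 8.63 and 19.4 CPM in MA, 145, 343 and 176 CPM in MC_Het), egr2a (-3.71), the AP-1 gene fosl1a (-2.79) and mycb (-2.37). The cytoplasmic phosphatase dusp6 had 747, 509, 1379, 658 and 599.6 CPM in MA and 341, 154 and 478 CPM in MC_Het, without overlap but short of the threshold (log2 fold change 1.26 ± 0.47, limma adjusted p = 0.0531). With the tumors of fish MA3 averaged, its adjusted p was 0.0482. For egr1, at 814, 308, 262, 409.8 and 1609 CPM in MA and 1173, 1648 and 1593 CPM in MC_Het, the groups overlapped (log2 fold change -1.46 ± 0.65, limma adjusted p = 0.0963), and the adjusted p with the tumors averaged was 0.0143.

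Of 25 genes of the p53 list, 1 was higher and 8 were lower (median -0.69), whereas with the CPM as deposited 5 were higher and 6 lower. The shares were 4% higher and 32% lower, beside 15.5% and 22.4% of all genes tested. The cell cycle inhibitor cdkn1a had 37.1, 13.9, 9.81, 9.89 and 11.2 CPM in MA and 52.2, 64.3 and 75.7 CPM in MC_Het (log2 fold change -1.94 ± 0.45, limma adjusted p = 0.00498), with MA1 nearest to the melanocytes, and lost its call without fish MA3. The antiproliferative gene btg2, also an immediate early gene, had 1210.4, 165, 207, 406 and 1518 CPM in MA and 6508, 11257 and 11926 CPM in MC_Het (log2 fold change -4.33 ± 0.81, limma adjusted p = 0.00129). The death genes pmaip1 (-2.30) and bbc3 (-1.83), which encode BH3-only proteins, baxb (-1.32), tp53inp1 (-2.08) and gadd45aa (-2.15) were lower too. The DNA damage sensor ddb2 was lower (-2.19) but overlapped between groups, and its call was lost when MA1, MA2, MC_Het2 or MC_Het3 was left out. That call was also lost with the CPM as deposited and in edgeR. The exception upwards was tp53i11b, at 108, 109.6, 46.7, 104 and 109 CPM in MA and 8.04, 3.81 and 2.12 CPM in MC_Het (log2 fold change 4.22 ± 0.48, limma adjusted p = 3.29e-05). The p53 ubiquitin ligase mdm2, itself a p53 target, had 65.9, 158, 164, 46.2 and 114 CPM in MA and 35.7, 56.4 and 63.7 CPM in MC_Het (log2 fold change 0.96 ± 0.51, limma adjusted p = 0.163) and was not called, nor was the kinase plk3 (-0.95). Without MA2 or without MA3B, 2 genes of the list were higher.

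Cell cycle genes were either higher in MA or not called. Of 37 genes tested, 27 (73.0%) were higher and 0 lower (median 2.40), beside 15.5% and 22.4% of all genes tested. Of the 27, 24 had every MA library above every MC_Het library. Called or not, 26 of the 37 lay above in this way, beside 18.5% of all genes tested. The summed share of the list was 0.216% to 0.503% of MA libraries and 0.0370% to 0.0534% of MC_Het libraries. The proliferation marker mki67 had 136, 164, 199, 169.6 and 44.9 CPM in MA, lowest in MA3C, and 14.1, 2.36 and 34.1 CPM in MC_Het, highest in MC_Het3 (log2 fold change 3.46 ± 0.77, limma adjusted p = 0.00389). The spindle assembly factor tpx2 had 205, 222, 128, 266 and 46.5 CPM in MA and 1.34, 2.36 and 5.16 CPM in MC_Het (log2 fold change 5.48 ± 0.64, limma adjusted p = 4.38e-05). Mitotic cyclin ccnb1 was at 105, 106, 92.8, 72.8 and 26.6 CPM in MA and 5.36, 2.09 and 4.78 CPM in MC_Het (log2 fold change 4.05 ± 0.55, limma adjusted p = 0.000129), and ccna2 rose by nearly as much (3.72). MA3C was the lowest tumor for each of these genes. The replication clamp pcna had 171, 194, 247, 253 and 207 CPM in MA and 59.3, 97.5 and 101 CPM in MC_Het, a smaller gap (log2 fold change 1.29 ± 0.30, limma adjusted p = 0.00567).

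Among the genes of the G1 phase, the kinase cdk6 had 510.3, 507, 1049, 575 and 341 CPM in MA and 166, 129.9 and 146 CPM in MC_Het (log2 fold change 1.89 ± 0.42, limma adjusted p = 0.00383), and the cyclin ccnd2a 357, 331, 508, 242 and 387 CPM in MA and 77.7, 48.7 and 66.9 CPM in MC_Het (log2 fold change 2.46 ± 0.35, limma adjusted p = 0.000188). The tumor suppressor locus cdkn2a/b was below 3 CPM in every library and was not called, with 0.738, 0.968, 1.28, 2.76 and 1.93 CPM in MA and 0.967, 0.0908 and 0.455 CPM in MC_Het (log2 fold change 0.65 ± 0.40, limma adjusted p = 0.22). The inhibitor cdkn1ba (-0.23) and the replicative helicase subunit mcm3 (-1.18) were not called, with values below 0. Of 23 kinesins, motors of the spindle and of cargo transport, 12 were higher and 2 lower, with kif2c (3.58), kif26aa (3.34) and kif14 (2.99) the highest. The kinesins kif13bb and kif26ab were the lower ones, and neither was called without MC_Het2 or without MC_Het3. Of 12 tubulins 4 were higher, among them tuba1b (3.13) and tuba1a (2.65), whereas tuba8l2 was lower (log2 fold change -5.23 ± 0.55, limma adjusted p = 1.88e-05). Of 10 histone genes 5 were higher, led by the replacement variant h2afva (2.48), the linker histone h1f0 (2.02) and h2afx (1.98), and 3 were higher without MA2, MC_Het2 or MC_Het3.

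**Figure D3:**
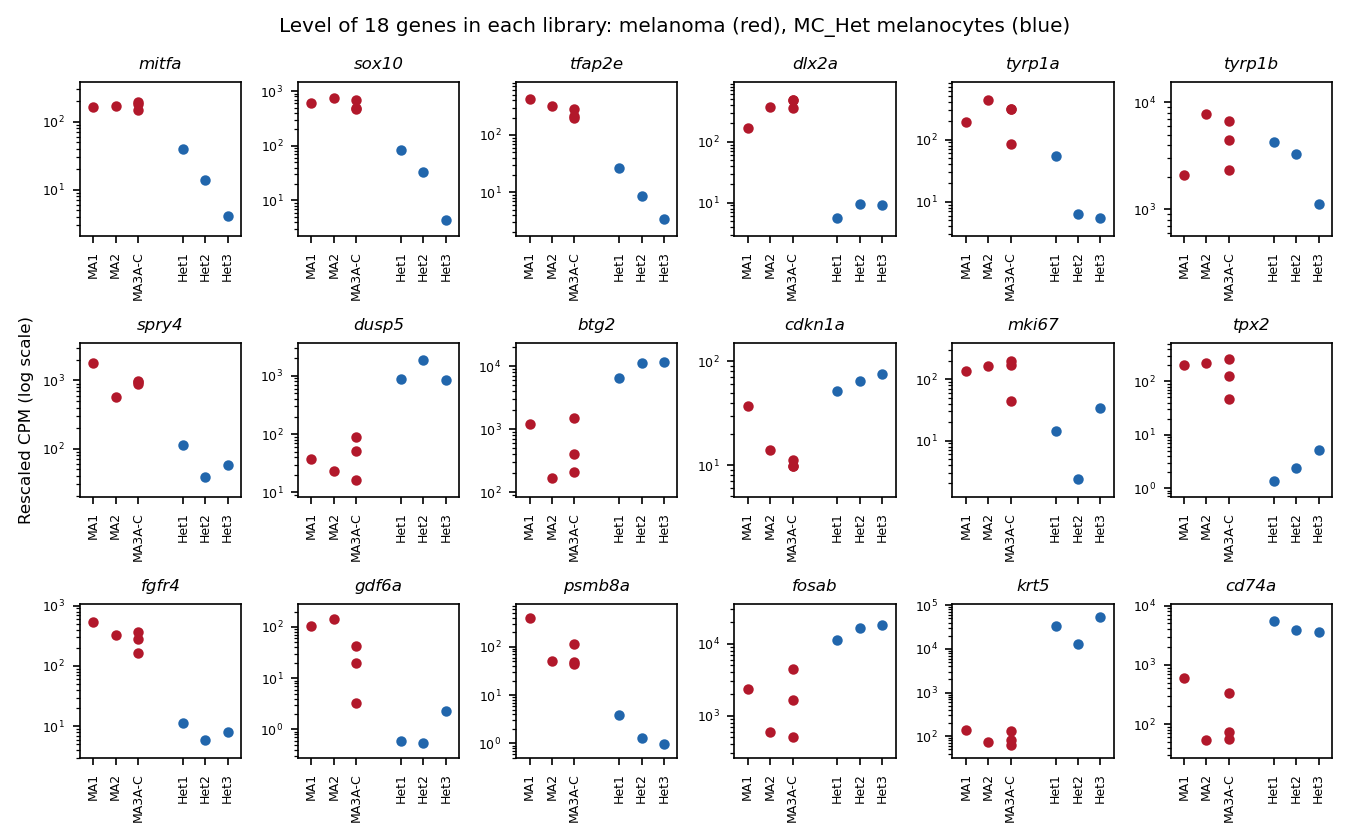
Level of 18 genes in each library as rescaled CPM (y, log scale), MA in red at left and MC_Het in blue at right, with the 3 tumors of fish MA3 at 1 position. For mitfa the tumors sit between 145.6 and 192.8 CPM, above the 3 melanocyte libraries, while tyrp1b overlaps between the groups and btg2, dusp5, fosab and krt5 are lower in MA.

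Enzymes that make nucleotides and nucleolar genes that make ribosomes had higher calls and no lower ones. Of 20 enzymes of de novo purine and pyrimidine synthesis, 8 (40%) were higher and 0 lower (median 0.70), beside 15.5% and 22.4% of all genes tested. The enzyme gene tyms is also on the list of cell cycle genes given above. CTP synthase, ctps1a, had 100.5, 108, 185, 139.6 and 100.1 CPM in MA and 27.2, 20.2 and 10.6 CPM in MC_Het (log2 fold change 2.65 ± 0.39, limma adjusted p = 0.000248), and thymidylate synthase, tyms, 24.6, 18.9, 34.6, 51.4 and 19.6 CPM in MA and 0.298, 4.36 and 0.379 CPM in MC_Het (log2 fold change 3.68 ± 0.60, limma adjusted p = 0.00051). The guanylate branch enzyme gmps (log2 fold change 1.40 ± 0.29, limma adjusted p = 0.00268), the phosphoribosyl pyrophosphate synthetase prps1a (1.29) and dihydrofolate reductase dhfr (1.48) were without overlap, with MA above. The call of umps (1.70) rested on few fish, as it was lost when MA2, MA3B, MC_Het1 or MC_Het2 was left out. It was also lost without fish MA3, with the tumors of that fish averaged, and in edgeR. A pair of enzymes with known roles in pigment cells and in melanoma did not pass: paics, a purine enzyme, had 81.7, 252, 236, 310.4 and 510.1 CPM in MA and 139, 171 and 179 CPM in MC_Het (log2 fold change 0.39 ± 0.50, limma adjusted p = 0.57), and dhodh, the mitochondrial pyrimidine enzyme, 9.07, 24.1, 20.1, 37.9 and 25.3 CPM in MA and 11.1, 14.8 and 32.5 CPM in MC_Het (log2 fold change 0.15 ± 0.52, limma adjusted p = 0.843).

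Of 27 nucleolar genes of ribosome biogenesis 10 (37.0%) were higher and 0 lower (median 0.95), beside 15.5% and 22.4% of all genes tested. The count was 25 higher with the CPM as deposited and 6 higher without fish MA3. The assembly factor nip7 had 36.8, 59.3, 27.4, 49.5 and 41.5 CPM in MA and 4.46, 6.18 and 6.45 CPM in MC_Het (log2 fold change 2.72 ± 0.39, limma adjusted p = 0.000195), and the chaperone npm1a 339, 1352, 629, 621 and 485 CPM in MA, highest in MA2, and 183, 249 and 189 CPM in MC_Het (log2 fold change 1.61 ± 0.43, limma adjusted p = 0.0108). The processing factors ebna1bp2 (2.13) and gar1 (1.68) rose without overlap. The calls of gar1 and utp15 (1.72) were lost without fish MA3. That of utp15 was also lost when MA2, MC_Het1 or MC_Het2 was left out, with the tumors of MA3 averaged, and in edgeR and DESeq2. The methyltransferase fbl (1.15), the helicase ddx21 (0.48) and nop56 (0.34) were not called. Of 72 cytosolic ribosomal protein genes 10 were higher and 1 lower (median 0.51), with rpl10 (log2 fold change 1.99 ± 0.37, limma adjusted p = 0.0013) and rps21 (1.54) the largest gains and rps8b the lower one (-2.14). The higher share of 13.9% was under the 15.5% of all genes tested. That higher count was 41 with CPM as deposited and 21 with the 75th percentile, 3 without MC_Het3, 4 without MC_Het2 and 5 without MA2. When any MC_Het library was left out, rps8b was not tested.

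Calls among protein genes of the mitochondria differed mostly in direction with the genome that encodes them. Of 63 nuclear genes for mitochondrial ribosomal proteins 26 were higher and 0 lower (median 0.85), with mrps18b at 89.4, 83.3, 52.5, 83.2 and 36.6 CPM in MA and 6.47, 4.81 and 8.27 CPM in MC_Het (log2 fold change 3.26 ± 0.42, limma adjusted p = 8.44e-05), followed by mrps23 (2.05) and mrpl9 (1.89). The count was 49 with CPM as deposited, 16 without MC_Het1 and 13 without MC_Het3. Of 88 nuclear genes for respiratory chain subunits and assembly factors 18 were higher and 2 lower (median 0.47), and 48 were higher with CPM as deposited. The shares were 20.5% higher and 2.27% lower, beside 15.5% and 22.4% of all genes tested. The cytochrome oxidase subunit cox4i2 had 108, 341, 89.4, 277 and 154 CPM in MA and 49.8, 7.18 and 16.2 CPM in MC_Het (log2 fold change 3.19 ± 0.65, limma adjusted p = 0.00224), cox6b1 rose alike (2.90), and ndufa4 varied most among tumors, with 43.5, 260.4, 67.4, 6.49 and 8.56 CPM in MA and 0.149, 3.72 and 4.55 CPM in MC_Het (log2 fold change 3.87 ± 1.12, limma adjusted p = 0.0168), and lost its call without MC_Het1.

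All 13 protein genes of the mitochondrial genome were lower in MA (median -1.69). The cytochrome b gene mt-cyb had 1672, 1146, 1049.5, 2098 and 2301 CPM in MA and 10647, 8195 and 18455 CPM in MC_Het (log2 fold change -2.94 ± 0.48, limma adjusted p = 0.000513), and mt-co3 (-2.11) and mt-nd4 (-2.06) fell next to it. With the CPM as deposited, 6 were called lower. Genes whose symbols begin with mt- together took 1.61% to 2.96% of the MA libraries and 3.54% to 6.42% of the MC_Het libraries. The mitochondrial ribosomal RNA AC024175.4 is not among them. It was the most abundant gene per length in both groups and was not called (-0.72).

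Proteasome subunits were higher more often than all genes tested: 23 of 40 higher and 0 lower (median 1.13). Within the constitutive proteasome, the regulatory subunit psmd3 had 413, 460.5, 456, 432 and 299 CPM in MA and 48.5, 80.7 and 57.4 CPM in MC_Het (log2 fold change 2.75 ± 0.31, limma adjusted p = 3.36e-05), and the catalytic subunits psmb7 (2.48), psmb6 (2.30) and psmb5 (1.94) rose too. The largest gains belonged to the immunoproteasome, the form that prepares peptides for MHC class I. The catalytic subunit psmb8a had 392, 49.7, 44.1, 113 and 47.9 CPM in MA and 3.8, 1.27 and 0.986 CPM in MC_Het (log2 fold change 5.12 ± 0.72, limma adjusted p = 0.000166), and psmb12 329.8, 38.1, 30.7, 66.4 and 48.8 CPM in MA and 2.01, 0.999 and 1.14 CPM in MC_Het (log2 fold change 5.01 ± 0.69, limma adjusted p = 0.00015). MA1 was far above the other tumors, and all tumors were above all MC_Het libraries. In MC_WT, rescaled over all 11 libraries, psmb8a averaged 172.6 CPM and psmb12 87.0 CPM. Neither gene was called in MA against MC_WT, so these gains hold against MC_Het only.

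Of 23 immunoproteasome and MHC class I genes 8 (34.8%) were higher and 1 (4.35%) lower (median 0.41), beside 15.5% and 22.4% of all genes tested. The peptide transporter tap2a had 27.7, 1.34, 2.52, 2.51 and 4.1 CPM in MA and 0, 0.0908 and 0.152 CPM in MC_Het (log2 fold change 2.44 ± 0.72, limma adjusted p = 0.0186), and psmb13a 134, 10.7, 9.81, 26.3 and 13.7 CPM in MA and 3.65, 5 and 5.61 CPM in MC_Het (log2 fold change 2.21 ± 0.77, limma adjusted p = 0.0397). Both calls depended on the melanocyte libraries: tap2a lost its call without MC_Het1 or MC_Het2, and psmb13a without any of the 3 MC_Het libraries, without MA1 or without MA3B. Against MC_WT, tap2a was not called in MA. The list had 5 higher genes without MC_Het1, MC_Het3 or MA1, and 4 without MC_Het2, while 3 were lower without MA1. Among the class I genes themselves, mhc1zea (1.202) and mhc1zca (1.11) were higher and mhc1uka (-1.70) lower. The most abundant ones were not called: mhc1uba had 15181, 1505, 1495, 3379 and 1754 CPM in MA and 799, 1229.5 and 1196 CPM in MC_Het (log2 fold change 1.62 ± 0.72, limma adjusted p = 0.0971), and mhc1zba (-0.85) and the light chain b2m (3299.6, 525, 503, 1396 and 827 CPM in MA, 1204, 1616 and 1392 CPM in MC_Het) overlapped between the groups. The leukocyte markers, given above, were also highest in MA1 among the tumors, at 0.158% of the library, and their part in these values was not tested.

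Interferon response genes were highest in the same tumor. Of 24 tested, 6 (25%) were higher and 2 (8.33%) lower (median 0.77), beside 15.5% and 22.4% of all genes tested. Their summed share was 0.477% in MA1, 0.0745% to 0.199% in the other MA libraries and 0.0978% to 0.108% in MC_Het. The ubiquitin-like modifier isg15 had 642, 190.0, 152, 398 and 229 CPM in MA and 50.8, 23.2 and 26.5 CPM in MC_Het (log2 fold change 3.18 ± 0.52, limma adjusted p = 0.000484). The antiviral gene ifit8 had 599, 10.5, 107, 87 and 49.2 CPM in MA and 0.67, 4.63 and 6.07 CPM in MC_Het (log2 fold change 4.32 ± 1.04, limma adjusted p = 0.0064), and ifit10 followed (3.47). In both, MA1 was highest and MA2 lowest of the tumors. The call of ifit10 was lost without fish MA3, and 3 genes of the list were higher without that fish, without MC_Het1 or without MC_Het2. The lysosomal thiol reductase ifi30, which acts in antigen presentation, was lower, with 56.4, 79.2, 17.4, 35.9 and 45.7 CPM in MA and 587, 437 and 545 CPM in MC_Het (log2 fold change -3.45 ± 0.46, limma adjusted p = 0.000113). The signal transducer stat1a was not called (log2 fold change -0.25 ± 0.40, limma adjusted p = 0.654).

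**Figure D4:**
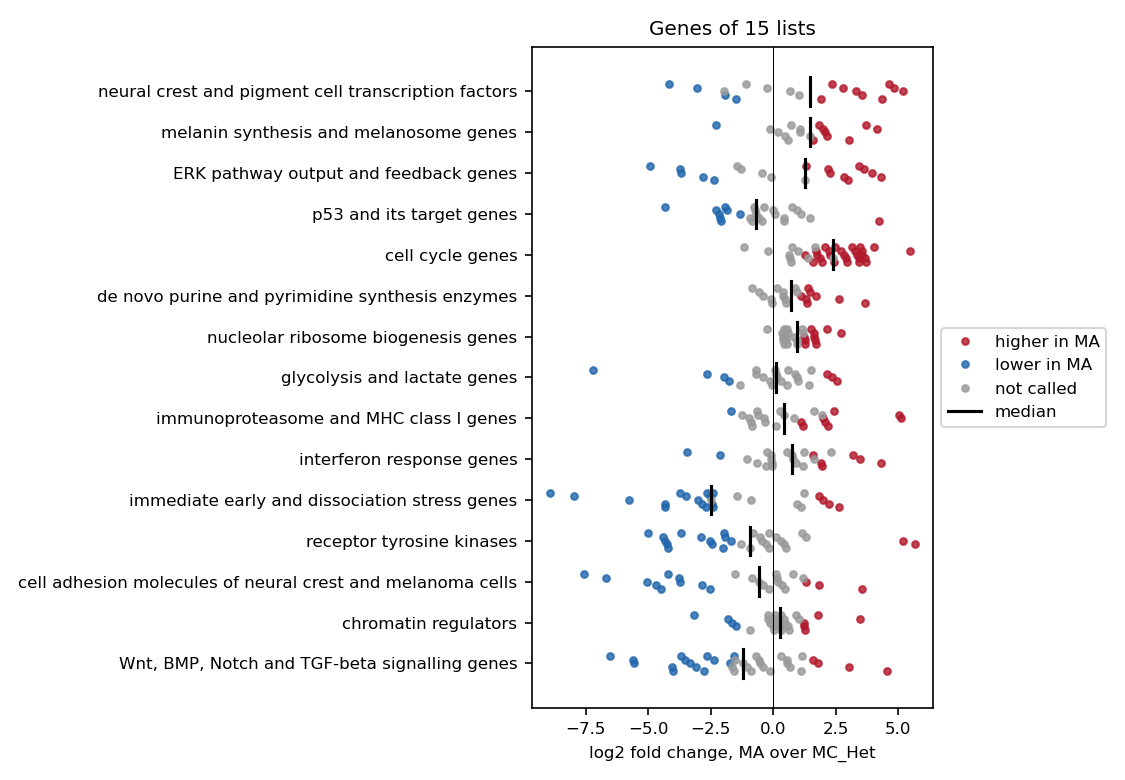
Log2 fold change of MA over MC_Het (x) of every tested gene of the lists named at left, with genes called higher in MA in red, called lower in blue and not called in grey, and a black bar at each list's median. Cell cycle genes have their median at 2.40 and immediate early and dissociation stress genes at -2.51, against 0.06 for all genes tested.

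Immediate early genes respond within minutes to growth factors or to stress such as tissue dissociation. They were listed together with heat shock genes, and this list of immediate early and dissociation stress genes was mostly lower in MA. Of 25 tested 15 were lower and 4 higher (median -2.51), and their summed share was 0.332% to 1.67% of MA libraries, highest in MA3C, and 2.86% to 3.95% of MC_Het libraries. The AP-1 gene fosab had 2306, 594, 513, 1632 and 4394 CPM in MA and 11325, 16544 and 17912 CPM in MC_Het (log2 fold change -3.49 ± 0.79, limma adjusted p = 0.00421). Its partner jun was at 207, 196, 33.5, 419.9 and 391 CPM in MA and 1697, 1257 and 1784 CPM in MC_Het (log2 fold change -3.03 ± 0.86, limma adjusted p = 0.0154). The nuclear receptor nr4a1 (-4.35), klf4 (-5.79) and klf2b, at 9.63, 2.72, 6.04, 5.11 and 10.6 CPM in MA and 1509, 2150.5 and 1669 CPM in MC_Het (log2 fold change -7.97 ± 0.42, limma adjusted p = 2.27e-07), fell further. The 4 higher genes were heat shock genes, hsp70.1 (2.63), hsp70l (2.24), hsp70.3 (1.97) and hspb1 (1.82). Skin and tumor are different tissues to dissociate, and that step and the group cannot be told apart.

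Of 29 receptor tyrosine kinases tested 13 were lower, 2 higher and 14 not called (median -0.93), and 12 were lower and 4 higher with the CPM as deposited. Their summed levels overlapped, at 769 to 1302 CPM in MA, highest in MA1, and 765 to 955 CPM in MC_Het, and as a share of the CPM as deposited MA lay above, at 0.0934% to 0.164% against 0.0560% to 0.0748% of MC_Het libraries. Of the higher genes, the FGF receptor fgfr4 had 542, 324, 284, 364 and 167 CPM in MA and 11.2, 5.9 and 8.04 CPM in MC_Het (log2 fold change 5.201 ± 0.42, limma adjusted p = 2.64e-06), and the neurotrophin receptor ntrk3a 36.5, 71.3, 120.1, 30.0 and 65.6 CPM in MA and 0.223, 0 and 0.152 CPM in MC_Het (log2 fold change 5.67 ± 0.55, limma adjusted p = 1.12e-05). Its relative fgfr3 went the other way, with 3.12, 2.63, 2.15, 2.14 and 1.12 CPM in MA and 117, 87.2 and 116 CPM in MC_Het (log2 fold change -5.01 ± 0.41, limma adjusted p = 2.93e-06), as did fgfr1a (-2.45) and fgfr2 (-2.52). The neuregulin receptor erbb3b, needed in zebrafish for the stem cells of adult melanocytes, was at 0.13, 0.875, 0.0828, 0.461 and 0.321 CPM in MA and 13.4, 46.1 and 29.4 CPM in MC_Het (log2 fold change -4.32 ± 0.49, limma adjusted p = 3.45e-05), and the macrophage-stimulating protein receptor mst1ra fell alike (-4.39). The receptor kita, which melanocytes need to migrate and survive, was not called, with 634, 309.8, 225, 265 and 578 CPM in MA and 353, 153 and 65.5 CPM in MC_Het (log2 fold change 1.33 ± 0.57, limma adjusted p = 0.0878). Without MC_Het1 the list had 8 lower genes.

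Among genes of the Wnt, BMP, Notch and TGF-beta pathways 14 of 35 were lower and 4 higher (median -1.23). The BMP ligand gdf6a, expressed in the early crest, had 103, 143, 19.9, 42.5 and 3.29 CPM in MA and 0.595, 0.545 and 2.28 CPM in MC_Het (log2 fold change 4.56 ± 1.02, limma adjusted p = 0.00409). It did not overlap, although MA3C lay close to MC_Het3. The Wnt inhibitor dkk1a (3.03) rose too. Of the targets of BMP, id2a rose (1.58), a call lost in edgeR and when MA1, MA2, MC_Het2 or MC_Het3 was left out. The target id3 was not called, with 62.6, 35.9, 7.53, 145 and 79.2 CPM in MA and 111, 58.7 and 47.9 CPM in MC_Het. The ligands wnt7aa (0.391, 0.276, 0.538, 0.168 and 0.161 CPM in MA, 83.3, 154 and 129 CPM in MC_Het), jag1b (-5.63), tgfb3 (-5.57), bmp2b (-3.34) and bmp4 (-3.10) were lower. The hairy-related gene her9, also on this list, had 226, 128, 116, 153 and 267 CPM in MA and 146, 118 and 149 CPM in MC_Het and was not called. Without MC_Het1 there were 9 lower genes, and without MC_Het2 or MC_Het3 2 higher. With the CPM as deposited 7 were higher.

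Genes of adhesion and of the tissue around the cells had more lower than higher calls in most families described. The keratinocyte, leukocyte and fibroblast markers given above were mostly lower too. These families share members with the marker lists, such as krt5, cldne, col17a1b, itgb4 and col1a2, so their counts repeat part of the same falls. All but 1 of 16 keratins tested were lower (median -6.20), with 9 lower without MC_Het1. Of 17 claudins 9 were lower and 1, cldng, higher. The claudin cldne had 3.12, 1.89, 2.65, 1.17 and 9.76 CPM in MA and 906, 903 and 781 CPM in MC_Het (log2 fold change -7.80 ± 0.57, limma adjusted p = 1.34e-06), and cldna fell alike (-7.43). Collagens counted 19 lower and 2 higher of 32. The fibril genes were named above, and col17a1b, a gene of the epidermal hemidesmosome, had 5.42, 1.89, 11.5, 4.98 and 5.46 CPM in MA and 331, 1066 and 502 CPM in MC_Het (log2 fold change -6.63 ± 0.53, limma adjusted p = 2.64e-06). The 2 higher ones were cartilage-type collagens, col9a2 (4.32) and col9a1a (2.22).

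Integrins, the receptors for matrix, counted 15 lower and 2 higher of 26 (median -2.66). The partners of the hemidesmosome, itgb4 (log2 fold change -6.68 ± 0.50, limma adjusted p = 1.75e-06) and itga6b (-6.46), and itgb6 (-6.27) fell most, while the paralog itga6a (3.31) and the fibronectin receptor subunit itga5 (1.55) were higher. Without MC_Het2 or without MC_Het3, 1 integrin was higher. Among adhesion molecules of crest and melanoma cells 10 of 25 were lower and 3 higher (median -0.55). The hyaluronan receptor cd44a had 4.56, 0.737, 8.07, 2.39 and 3.82 CPM in MA and 565, 1073 and 721 CPM in MC_Het (log2 fold change -7.58 ± 0.54, limma adjusted p = 1.25e-06), the tetraspanin cd9b (-6.67), the L1 family gene chl1a (-5.06) and the integrin itgb3a (-4.69) fell, and the semaphorin receptor nrp2b (3.57) rose. The number higher was 1 without MC_Het3. The melanoma adhesion molecule mcamb (9.16, 17, 8.65, 61.4 and 63.8 CPM in MA, 37.1, 29.2 and 4.02 CPM in MC_Het), the neural cadherin cdh2 (-0.42), the syndecan sdc4 (-0.55) and the tetraspanin cd63 (-0.17) were not called.

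Cadherins and protocadherins split evenly, with 7 higher and 7 lower of 26 (median 0.35). Each share was 26.9%, beside 15.5% higher and 22.4% lower of all genes tested. The highest gain was that of cdh10a, at 28.8, 59.5, 17.9, 40.6 and 27.4 CPM in MA and 1.93, 0.182 and 0.455 CPM in MC_Het (log2 fold change 4.35 ± 0.53, limma adjusted p = 5.43e-05), and cdh27 (-5.32) and cdh26.2 (-4.85) fell most. Of 67 semaphorins, plexins, ephrins, Eph receptors, netrins, slits and their receptors 27 were lower and 7 higher (median -0.74). The ephrin efna1b had 0.998, 0.23, 1.28, 1.68 and 1.25 CPM in MA and 201, 389.8 and 212 CPM in MC_Het (log2 fold change -7.07 ± 0.44, limma adjusted p = 4.65e-07) and ntn5 fell as well (-5.92), while ntng2a and the slit receptors robo1 (3.67) and robo3 (2.51) rose.

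Chemokines and their receptors had 22 of 32 lower and 0 higher (median -2.67), or 14 lower when any MC_Het library was left out, where 8 of the 22 were not tested. The ligand ccl25a was at 0.26, 0.276, 0.373, 0.168 and 0.321 CPM in MA and 307, 290.0 and 397 CPM in MC_Het (log2 fold change -8.01 ± 0.38, limma adjusted p = 1.3e-07), and ccl25b (-7.54) and ccl27b (-6.78) followed. Matrix proteases and their inhibitors counted 16 (39.0%) lower and 3 (7.32%) higher of 41, beside 22.4% and 15.5% of all genes tested. Furthest down were adam28 (-5.58), mmp14a (-4.89) and the inhibitor timp4.1 (-4.56), and 9 or 10 were lower without MC_Het3 or MC_Het1.

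Of 27 chromatin regulators 5 were higher and 4 lower (median 0.28), and 8 were higher and 2 lower with the CPM as deposited. The shares were 18.5% higher and 14.8% lower, near or under the 15.5% and 22.4% of all genes tested. The H3K9 methyltransferases setdb1a, an accelerator of zebrafish melanoma in its human form, and suv39h1b were higher: setdb1a had 54, 44.3, 59.2, 47.2 and 47 CPM in MA and 12.2, 16.6 and 12.4 CPM in MC_Het (log2 fold change 1.80 ± 0.31, limma adjusted p = 0.000799), and suv39h1b 18, 27.3, 27.9, 20.7 and 18.5 CPM in MA and 0.149, 0.0908 and 6.29 CPM in MC_Het (log2 fold change 3.47 ± 0.64, limma adjusted p = 0.00117). The H3K27 methyltransferase ezh2 (1.24), hmga1a (1.27) and hdac1 (1.24) had smaller gains that were lost without some libraries: ezh2 without MA2, MC_Het2, MC_Het3 or fish MA3, hmga1a without MA1, MA2, MC_Het1 or MC_Het2, and hdac1 without MC_Het1. The matrix attachment gene satb1b was lower (log2 fold change -3.18 ± 0.45, limma adjusted p = 0.000189). The number of lower genes was 1 without MC_Het3 and 2 without MA1, MC_Het1 or MC_Het2, and 3 were higher without MA2, MC_Het1 or MC_Het2.

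Glycolysis genes had calls in both directions, also between paralogs, with 3 higher and 4 lower of 24 (median 0.13). The shares, 12.5% higher and 16.7% lower, were under the 15.5% and 22.4% of all genes tested. With the CPM as deposited 9 were higher and 3 lower, so that the direction with more calls depended on the scaling. The aldolase aldocb had 604, 615, 371, 162 and 241 CPM in MA and 70.5, 58.4 and 71.3 CPM in MC_Het (log2 fold change 2.56 ± 0.45, limma adjusted p = 0.000847), against 1.26, 0.0921, 0.373, 0.293 and 0.321 CPM in MA and 5.73, 9.99 and 9.71 CPM in MC_Het of aldoab (log2 fold change -2.67 ± 0.41, limma adjusted p = 0.000331). The enolase eno1a was higher in MA (log2 fold change 2.37 ± 0.48, limma adjusted p = 0.00218), highest in MA2, and eno2 lower (-1.96). The dehydrogenase gapdh was at 0.217, 1.66, 0.331, 0.168 and 0.321 CPM in MA and 248, 261 and 174 CPM in MC_Het (log2 fold change -7.20 ± 0.44, limma adjusted p = 4.65e-07), whereas its paralog gapdhs had 702, 1144, 544, 471 and 410.3 CPM in MA and 544, 796 and 731 CPM in MC_Het (log2 fold change -0.04 ± 0.37, limma adjusted p = 0.949). The lactate dehydrogenase ldhba was not called (0.13). The glucose transporter slc2a1a had 0 reads in all 8 libraries, which allows up to 3 reads, or 0.133 to 0.204 CPM as deposited, per library for counting error alone. The number of higher genes was 6 without MA3B, and without fish MA3 5 were higher and 2 lower. Genes of cholesterol synthesis and uptake counted 8 lower and 0 higher of 14 (median -1.71). The rate-limiting enzyme hmgcra had 7.9, 18, 2.98, 4.23 and 4.58 CPM in MA and 108, 379.8 and 93.7 CPM in MC_Het (log2 fold change -4.26 ± 0.60, limma adjusted p = 0.000167), the receptor ldlra 0.13, 0.138, 0.0828, 0.209 and 0.121 CPM in MA and 32.9, 34.2 and 14.5 CPM in MC_Het (log2 fold change -4.54 ± 0.43, limma adjusted p = 8.52e-06), and the demethylation enzyme msmo1 fell alike (-3.54). The count was 5 lower without MC_Het1 or without MC_Het2.

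**Figure D5:**
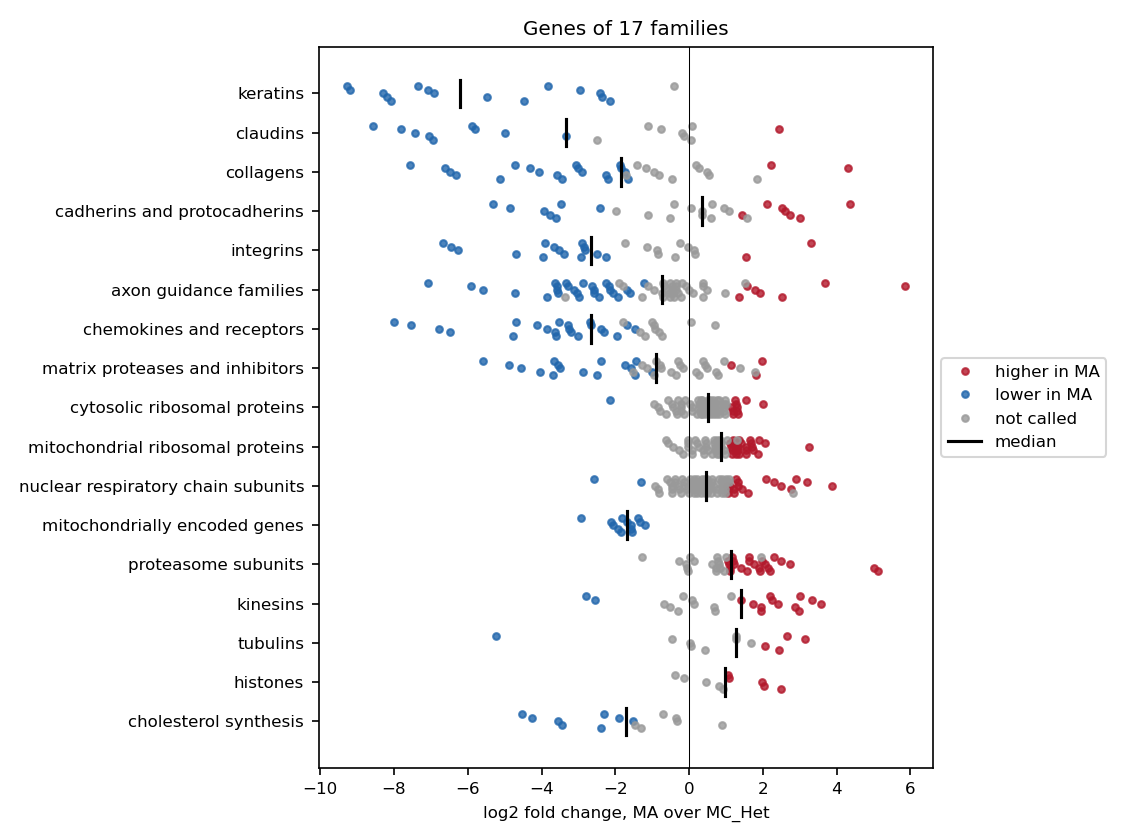
Log2 fold change of MA over MC_Het (x) of every tested gene of the families named at left (axon guidance families are the semaphorins, plexins, ephrins, Eph receptors, netrins and slits), with genes called higher in MA in red, called lower in blue and not called in grey, and a black bar at each median. The medians run from -6.20 for the keratins to 1.40 for the kinesins.

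The choice of MC_Het as the melanocyte group could matter where the melanocyte genotypes differ, and this was tested as MC_Het over MC_WT in a fit of all 11 libraries. MC_WT came from the AB* line with mitfa:mCherry, and MC_Het from a cross of that line to a BRAFV600E/p53lf/lf/mitfa-/- stock. The oncogene, the p53 and mitfa alleles and any other background of that stock differ together here and cannot be told apart. Of 14706 genes tested there, 106 (0.721%) were higher and 52 (0.354%) lower in MC_Het than in MC_WT, together 1.07%. Leaving out 1 melanocyte library moved these counts widely, to 19 to 125 higher and 8 to 142 lower, and edgeR called 24 higher and 12 lower. The genes below were chosen by this comparison, which shares the MC_Het libraries with that of MA over MC_Het, so their values in MA over MC_Het are a description.

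The immunoproteasome subunits psmb8a and psmb12 and the peptide transporter tap2a were lower in MC_Het than in MC_WT. Rescaled over all 11 libraries, psmb8a averaged 119.4 CPM in MA, 1.80 CPM in MC_Het and 172.6 CPM in MC_WT (MC_Het over MC_WT log2 fold change -6.05, limma adjusted p = 0.000514). Likewise psmb12 averaged 94.8 CPM in MA, 1.24 CPM in MC_Het and 87.0 CPM in MC_WT (-5.29, adjusted p = 0.00142), and tap2a 7.06 CPM in MA, 0.0727 CPM in MC_Het and 16.5 CPM in MC_WT (-3.90, adjusted p = 0.0235). Against MC_WT none of the 3 genes was called in MA (log2 fold changes of MA over MC_WT -0.93, -0.29 and -1.53). The unnamed gene si:ch1073-190k2.1 averaged 32.5 CPM in MA, 2.09 CPM in MC_Het and 225.8 CPM in MC_WT (MC_Het over MC_WT -6.56, adjusted p = 8.71e-05), so it was higher in MA than in MC_Het (3.80) and lower than in MC_WT (-2.79). Another, si:ch1073-340i21.3, was lower in MA than in both, at 1.63 CPM in MA, 51.1 CPM in MC_Het and 509.4 CPM in MC_WT (MC_Het over MC_WT -3.33, adjusted p = 0.00126).

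Of the 106 genes higher in MC_Het than in MC_WT, 70 were lower in MA against MC_Het and not called against MC_WT. The 3 with the smallest p-values between the genotypes are given first. The gene si:dkey-266f7.5 averaged 0.987 CPM in MA, 165.4 CPM in MC_Het and 0.508 CPM in MC_WT (MC_Het over MC_WT 6.73, limma adjusted p = 9.18e-06), BX323854.4 0.0472 CPM in MA, 12.9 CPM in MC_Het and 0.0805 CPM in MC_WT (3.69), and BX469930.1 0.153 CPM in MA, 16.8 CPM in MC_Het and 0.375 CPM in MC_WT (3.69). Their falls in MA over MC_Het (-6.45, -3.87 and -4.05) stood beside no call against MC_WT. A further 3 genes named above for their falls in MA also differed between the melanocyte genotypes. The gene ccl25a had 0.257 CPM in MA, 297.2 CPM in MC_Het and 41.7 CPM in MC_WT (MC_Het over MC_WT 2.87). For apnl the means were 1.78 CPM in MA, 1206.5 CPM in MC_Het and 410.9 CPM in MC_WT (1.52). For rps8b they were 0.274 CPM in MA, 4.65 CPM in MC_Het and 0.402 CPM in MC_WT (1.94). For ccl25a and apnl the level in MA was also below that in MC_WT (log2 fold changes -5.01 and -7.26). Of the other genes given with values here, none was called between MC_Het and MC_WT.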

How the data were processed

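RNA was sequenced as single-end reads from sorted cells of 11 libraries, of which 8 entered the comparison. Alignment was by STAR against GRCz11, per the authors. The authors' methods name RSEM with RefSeq genes. The deposited tables list Ensembl genes with whole reads, so whether RSEM made them is not clear. The authors deposited a table of CPM (read counts scaled to a common library size) and a table of RPKM, in which the deposited CPM is divided by gene length. Each identifier was used once (24441 genes of 24874 lines), and 21939 matched a name table. Of 661 list entries 99 were not matched. Low CPM values were whole multiples of 1 read, within 0.01 read, for 100% of those checked.

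MA was compared with MC_Het by limma 3.58.1 in R 4.3.3 on log2(rescaled CPM + 1), with the fish as a random block (correlation 0.362) and Benjamini-Hochberg adjustment. Recovered reads were tested with edgeR 4.0.16 and DESeq2 1.42.0 as alternatives. The procedure was tested on simulated data in which few genes changed, as many up as down. In these data many more genes differed, so that test cannot show how the scaling acts here. The genes given with values are mitfa, the 6 largest changes in each direction at a mean of at least 10 CPM without overlap, preset, most changed and most abundant members of each list, the 3 smallest p-values in each direction between melanocyte genotypes, the 5 largest changes in each direction among transcription factor families, and up to 3 of each other family described. Other members of a list stand beside them as examples chosen after their values were seen. The members and lists were chosen with earlier results of these data known. Promoter sequences were not used here, and some genes that this rule takes are not reported here.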

Additional observations from a re-analysis of the deposited data

Results flagged for a closer look

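Among 222 groups of 5 tumor values tested, 42 had 1 library far from the other 4, where the 95% limit used lets chance set a library apart in about 1 in 20 groups of independent values. Here 3 of the 5 values come from 1 fish and the genes were chosen, so that rate is only a guide. Values are rescaled CPM unless said otherwise. MA1 stood apart for cdkn1a (37.1), aldoab (1.26), psmb8a (392), psmb12 (329.8), tap2a (27.7), psmb13a (134), mhc1uba (15181), ifit8 (599), grn1 (19.9) and rps8b (0.781). As a percent of the library it stood apart for the enzymes of purine and pyrimidine synthesis (0.167), the immunoproteasome and MHC class I genes (3.40) and the receptor tyrosine kinases (0.164). MA2 stood apart for npm1a (1352), gapdh (1.66), eno1a (2136), slc4a1a (3.46), hbba1 (53.03), ckma (5.53) and ndufa4 (260.4). MA3A stood apart for dsg2.1 (9.23), dusp6 (1379), tp53i11b (46.7), itgb3a (0.993) and ntn5 (2.57), and MA3B for fabp7a (144), mylpfa (0.335) and lyve1b (0.586). MA3C stood apart for krt97 (16.1), krt4 (329), col1a2 (31.7), dcn (13.5), col1a1a (16.7), col1a1b (22.7), pecam1 (0.281), elf3 (26.2), cldne (9.76), cdh27 (0.884), ccl25b (19.4), timp4.1 (0.603) and tuba8l2 (29.1), and for the fibroblast and osteoblast markers, at 0.0303% of the library.

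For 11 of the genes given with values, the change in MA differed by which melanocytes it was set against, by the limma test of MC_Het over MC_WT. The 3 smallest p-values in each direction of this same test were a rule for naming genes, so the count was partly set in advance. Over all genes tested there, 1.07% were called. The log2 fold changes of MC_Het over MC_WT were 6.73 for si:dkey-266f7.5, 3.69 for BX323854.4, 3.69 for BX469930.1, 2.87 for ccl25a, 1.94 for rps8b and 1.52 for apnl. They were -6.56 for si:ch1073-190k2.1, -6.05 for psmb8a, -5.29 for psmb12, -3.90 for tap2a and -3.33 for si:ch1073-340i21.3.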

How the results depend on the processing

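Of 170 named genes called between MA and MC_Het, 152 kept direction and call in every alternative that tested them other than an adjusted p under 1e-6, 0 turned sign, and 18 lost the call in at least 1. Many were named for the size of their change, so the number of stable calls was partly set in advance. Of 198 named genes, called or not, 184 were tested when any 1 MC_Het library was left out. The counts of 2168 higher and 3142 lower moved by over 1.5 times in 3 settings. With CPM as deposited 4329 genes were higher. Without fish MA3 1379 were higher. At an adjusted p under 1e-6, limma called 0 higher and 78 lower, where edgeR called 0 and 19, DESeq2 called 440 and 1407, and at an unadjusted p under 0.05 limma gave 3032 higher and 3643 lower. Leaving out 1 library gave 1632 to 2236 higher and 2209 to 3113 lower, and when 1 tumor of MA3 was left out the correlation of the whole fit was kept. The replicate block, with the number 1 to 3 as a fixed term, gave 2529 higher and 3382 lower. The deviations of same-numbered libraries correlated at -0.0053, 0.035 and -0.034, and those of differently numbered ones at -0.034 to 0.039. No pairing by number showed, but a check on 3 fish per group cannot exclude a small shared effect.

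Between MC_Het and MC_WT (106 higher, 52 lower), edgeR gave 24 and 12, DESeq2 253 and 253, CPM as deposited 25 lower and tumors taken as independent 84 lower. Leaving out 1 library gave 19 to 125 higher and 8 to 142 lower. The counts were 19 and 18 without MC_Het2, 31 and 24 without MC_Het3, 44 and 46 without MC_Het1, 67 and 27 without MA2, and 34 lower without MA3A. Added after the data were seen were the settings without MC_WT1 (32 and 8), MC_WT2 (125 and 142) and MC_WT3 (43 and 11) and a replicate block (109 and 56).

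Of 28 named genes not called, 12 changed sign in some setting. With CPM as deposited the log2 fold changes were 0.59 for gapdhs, 0.25 for b2m, 0.40 for stat1a, 0.17 for cdh2, 0.11 for sdc4, 0.47 for cd63 and 0.10 for id3. With the 75th percentile they were 0.21 for gapdhs, 0.0029 for stat1a and 0.0822 for cd63. Without fish MA3 they were -0.0896 for paics, -0.15 for dhodh, 0.48 for gapdhs, 0.0023 for b2m, -0.33 for mcamb, 0.17 for cd63, 0.28 for hbba1 and 1.12 for hbba2. With MA3A as its only tumor they were -0.0398 for dhodh, 0.21 for gapdhs and -0.52 for mcamb, with MA3B 0.12 for gapdhs, 0.17 for cd63 and 0.0586 for id3, and with MA3C 0.0688 for gapdhs and 0.10 for hbba2. For gapdhs it was 0.0862 with the tumors averaged and 0.0124 with 3 groups, and for dhodh -0.00092 with the replicate block. Leaving out 1 library gave -0.15 to 0.57 for dhodh, -0.28 to 0.0624 for gapdhs, -0.97 to 0.0201 for b2m, -0.57 to 0.13 for stat1a, -0.70 to 0.78 for mcamb and -0.86 to 0.00090 for id3. The cause was not tested. Low genes are limited by depth, since 3 reads are 0.133 to 0.204 CPM.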
